A study of Homo sapiens with 4 samples.

Results

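Of the 12838 gene symbols in the EXOSC10 RNA-immunoprecipitation libraries, 89 belonged to the machinery of cell division and the gene families around it. They were taken by name: every numbered kinesin (KIF), every centromere protein of the CENP series, the BUB checkpoint proteins, AURKA and AURKB, PLK1 to PLK4, the A, B, D and E cyclins, every numbered cyclin-dependent kinase (CDK), and NDC80, NUF2, SPC24, SPC25, MAD2L1, TTK, CDC20 and CEP55. Because the rule works on names, it also took 14 kinesins without an established role in mitosis and 13 CDKs that act in transcription or elsewhere, and the label "mitotic" does not describe these 27. The remaining 62 have roles in cell division.

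EXOSC10 is the nuclear 3' to 5' exoribonuclease of the RNA exosome, the complex that trims and degrades RNA. The cells were LM2-4175, a line selected for lung metastasis from MDA-MB-231 breast cancer cells, and in all groups they stably carried a doxycycline-inducible construct of CerS4, a ceramide synthase, and were kept in puromycin and hygromycin. The 4 groups, with 1 library each, were untreated cells precipitated with control IgG, untreated cells precipitated with anti-EXOSC10, and the same pair from cells given doxycycline at 5 µg/mL for 48 h. The study's question was how EXOSC10-bound mRNA changes with doxycycline. There was no group of cells lacking the construct, so doxycycline itself and CerS4 cannot be told apart, and the level of CERS4 is not analysed here. With no input library, more of an mRNA in the cells and more of it in the precipitate cannot be told apart either, nor can more cells in mitosis and more of the mRNA per cell.

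Mitotic kinesins are motors that build the spindle, move chromosomes along it and cut the cell in cytokinesis. The kinetochore is the protein platform on each centromere that catches spindle microtubules. Its outer NDC80 complex (NDC80, NUF2, SPC24 and SPC25) holds the microtubule, and its inner part is made of CENP proteins. The spindle checkpoint (BUB1, BUB1B, BUB3, MAD2L1, TTK) holds the cell before anaphase by blocking CDC20 until all kinetochores are attached. Cyclins bind CDKs and turn them on in order, with the D cyclins and CDK4 or CDK6 early and cyclins A and B with CDK1 or CDK2 later. Many of these genes are transcribed together in late cell cycle phases through promoters that carry a CHR (cell cycle genes homology region) element near the start and CCAAT boxes upstream.

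The promoters of 6 genes on which the results turn are printed here to show where these elements are present and where no match was found. The sequences run from 120 bases before to 10 bases after the annotated start and come from RefSeq, build GRCh38.p14, the same build as hg38. They are shown for the 4 members that were higher with doxycycline in the EXOSC10 libraries and for CDK13 and CDK6, which differed most in the other comparisons. Capitals mark a CHR (TTTGAA or TTCGAA, on either strand) or a CCAAT box (CCAAT, read ATTGG on the other strand), and the first listed promoter was used where a gene had several.
NDC80, chr18:2571437-2571566, plus strand: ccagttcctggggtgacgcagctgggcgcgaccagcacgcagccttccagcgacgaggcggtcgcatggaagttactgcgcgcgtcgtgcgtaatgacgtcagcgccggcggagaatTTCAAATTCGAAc
KIF11, chr10:92593010-92593139, plus strand: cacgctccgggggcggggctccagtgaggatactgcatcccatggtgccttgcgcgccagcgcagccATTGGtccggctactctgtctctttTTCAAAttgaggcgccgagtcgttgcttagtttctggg
KIF22, chr16:29790631-29790760, plus strand: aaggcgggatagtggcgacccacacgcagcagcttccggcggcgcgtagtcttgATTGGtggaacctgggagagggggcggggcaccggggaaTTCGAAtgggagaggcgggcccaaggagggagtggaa
CCNA2, chr4:121823874-121824003, minus strand: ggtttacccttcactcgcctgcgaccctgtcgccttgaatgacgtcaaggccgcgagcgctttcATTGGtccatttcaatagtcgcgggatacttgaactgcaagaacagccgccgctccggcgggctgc
CDK13, chr7:39950136-39950265, plus strand: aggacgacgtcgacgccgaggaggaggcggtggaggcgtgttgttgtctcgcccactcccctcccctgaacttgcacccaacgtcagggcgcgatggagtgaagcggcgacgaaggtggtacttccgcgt
CDK6, chr7:92836564-92836693, minus strand: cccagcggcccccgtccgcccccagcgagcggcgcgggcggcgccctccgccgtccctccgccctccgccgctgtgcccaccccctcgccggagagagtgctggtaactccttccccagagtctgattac

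NDC80 had a pair of adjoining CHR matches, the first across its start site and the second just after it. KIF11 and KIF22 had a CHR 28 and 27 bases upstream, each with a CCAAT box further up. CCNA2 had a CCAAT box and no match to the CHR forms searched in the window shown. That window holds cttgaa, which differs from TTTGAA in its first letter and was not searched. CCNA2 therefore counts below among the members without both elements. CDK13 and CDK6 had neither in the window shown. Over the whole windows of 300 bases, 28 of the 52 cell division members with a listed promoter held a CHR (53.8%), against 16.6% of all 27305 genes in the promoter table, and 22 held both elements (42.3%, against 6.58%). Among the other kinesins and CDKs the share with both was 12%, or 3 of 25. Members with and without the elements had medians near 0 in the EXOSC10 pair, with wide ranges. In it 14 cell division members with both elements had a median log2 ratio of doxycycline over untreated of -0.0097 (range -0.90 to 1.42), and 17 without both had -0.061 (-1.26 to 3.35). For EXOSC10 over IgG with doxycycline the medians were 0.31 over 13 with both and -0.083 over 17 without. These letters are a description of the windows and no measure of binding.

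The libraries held 3723291 reads (untreated IgG), 4233592 (untreated EXOSC10), 7575125 (doxycycline IgG) and 5511208 (doxycycline EXOSC10), of which 56.3% to 83.8% lay on ribosomal RNA genes. The doxycycline EXOSC10 library had 2408177 reads outside ribosomal RNA and the others 1023362 to 1229743. All 8 mesenchymal markers chosen for an MDA-MB-231 derivative were present, with VIM between 2079 and 4396 reads. No blood marker was listed, and 2 of 4 fibroblast and 1 of 4 endothelial markers were. Of 8 luminal markers 6 were listed, and their summed level ran from 227 to 711 per 1000000 reads outside ribosomal RNA, highest in the doxycycline EXOSC10 library; their part in the results was not tested. The members together took 4459, 5190, 4495 and 12615 reads in the library order just given, which is 0.423%, 0.507%, 0.366% and 0.524% of the reads outside ribosomal RNA. Depth therefore set what could be seen: 80 of 89 members (89.9%) had most reads in the doxycycline EXOSC10 library, as did 87.1% of all symbols, and 10 members were without a read in the untreated IgG library against 1 in the doxycycline EXOSC10 library.

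In what follows, reads are always given in the order untreated IgG, untreated EXOSC10, doxycycline IgG, doxycycline EXOSC10. They are estimates from the deposited values, and fractions arise where a read was divided between gene models. A level is in CPM (reads scaled to 1000000 per library) after TMM scaling (trimmed mean of M values), which sets the bulk of genes equal between libraries. A ratio is the log2 ratio of 2 libraries on this scale after adding 0.2 CPM, with a 95% Clopper-Pearson interval that covers counting error only. To be counted as higher or lower, a member needed 100 reads or more in the pair and a ratio of 2-fold or more. No such ratio has a replicate behind it, and none has a p-value. Levels are compared between libraries and not between genes, whose transcript lengths were not used here.

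**Figure D1:**
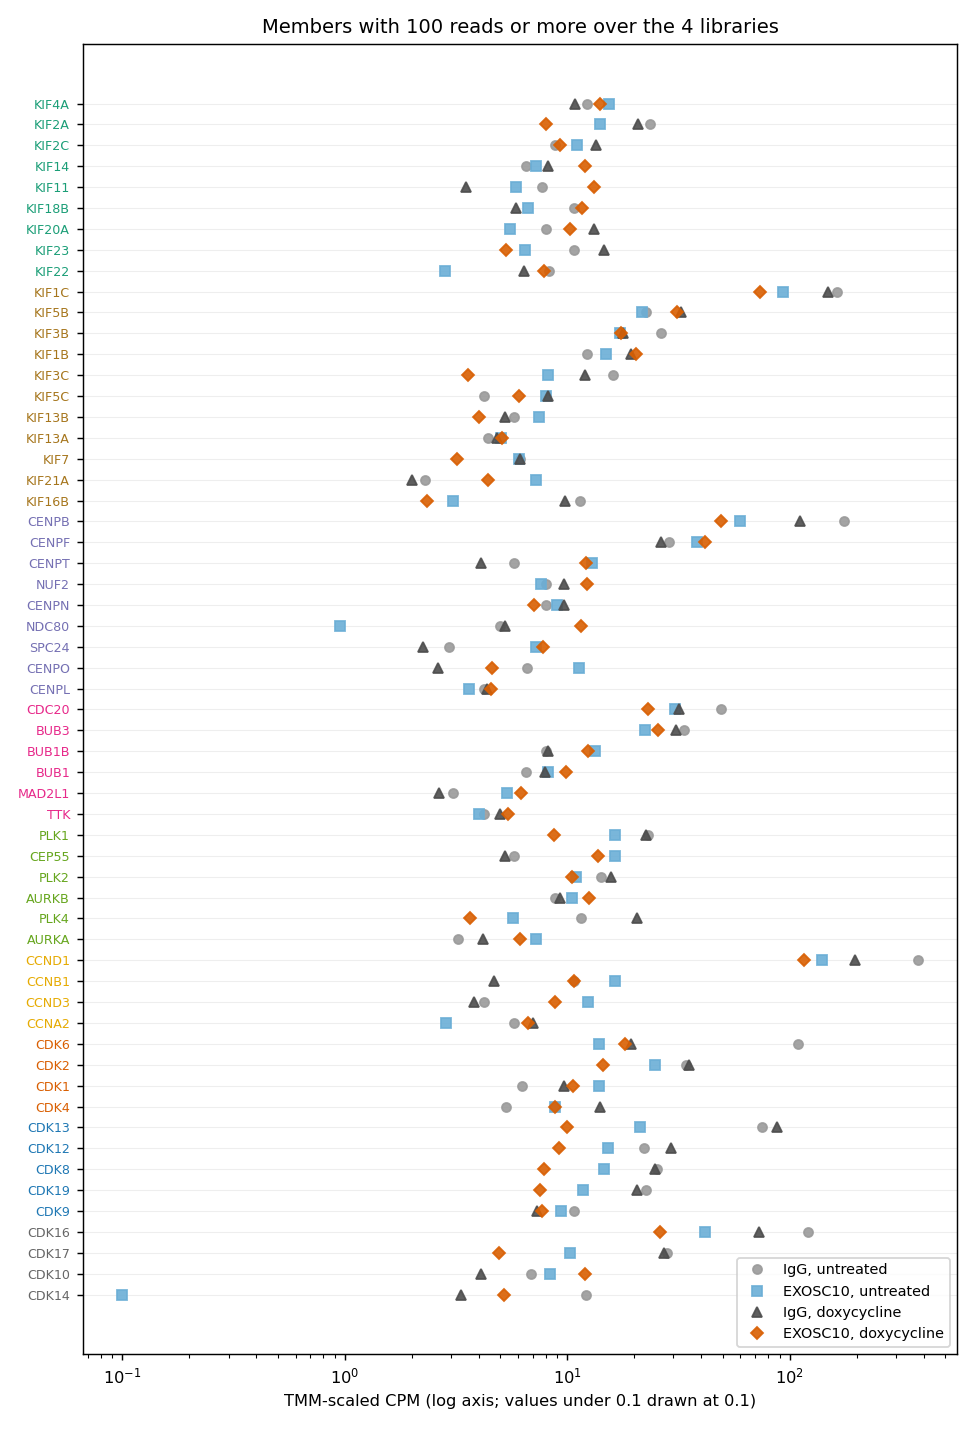
Level of the 58 members with 100 reads or more over the 4 libraries, as TMM-scaled CPM on a log axis. Each row is a gene, names are coloured by role list, and each of the 4 marker shapes is 1 library. NDC80 and CDK14 stand out by a low untreated EXOSC10 value, CDK6 by a high untreated IgG value, and CDK13 by IgG values (triangle and circle) well above both EXOSC10 values.

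With doxycycline most of these mRNAs in the EXOSC10 precipitate stayed within 2-fold of their untreated level, relative to the bulk of genes, and 4 were higher by more than that. NDC80, the microtubule-binding subunit of the outer kinetochore, was higher by 10.2-fold. The spindle motor KIF11, the chromosome-bound motor KIF22 and cyclin A2 (CCNA2) were 2-fold higher or more, and CENPO, CDK13 and CDK17 were 2-fold lower or more. These were 7 of 48 members with enough reads (14.6%), against 10.0% of all 6579 genes tested. By direction, the 4 higher members made 8.33% against 5.84% of all genes, and the 3 lower members 6.25% against 4.20%. The members' median log2 ratio was -0.18 and that of all genes -0.06. Members with few untreated EXOSC10 reads entered this pair only where their doxycycline EXOSC10 reads were many, which favoured higher ratios among them. NDC80, KIF22 and CCNA2 entered in this way. The same limit holds for every count of this pair below.

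The intervals gave a similar picture. Among the 48 members, 12 had an interval wholly above 0 (25.0%, against 20.9% of all genes) and 16 one wholly below (33.3%, against 29.5%). The group therefore spread to both sides about as much as genes in general. A scaling by the total of all reads shifted the scale up by 1.04 (single ratios by slightly more or less, through the pseudocount), the ribosomal share being 75.8% untreated and 56.3% with doxycycline, and with it 20 members were 2-fold higher and none lower. By the upper quartile or by reads outside ribosomal RNA the only lower member left was CENPO, as CDK13 and CDK17 fell short of 2-fold. CCNA2 lay at 0.98 with a pseudocount of 1 CPM, and KIF11 at 0.98 when the entry with most reads stood for each gene.

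**Figure D2:**
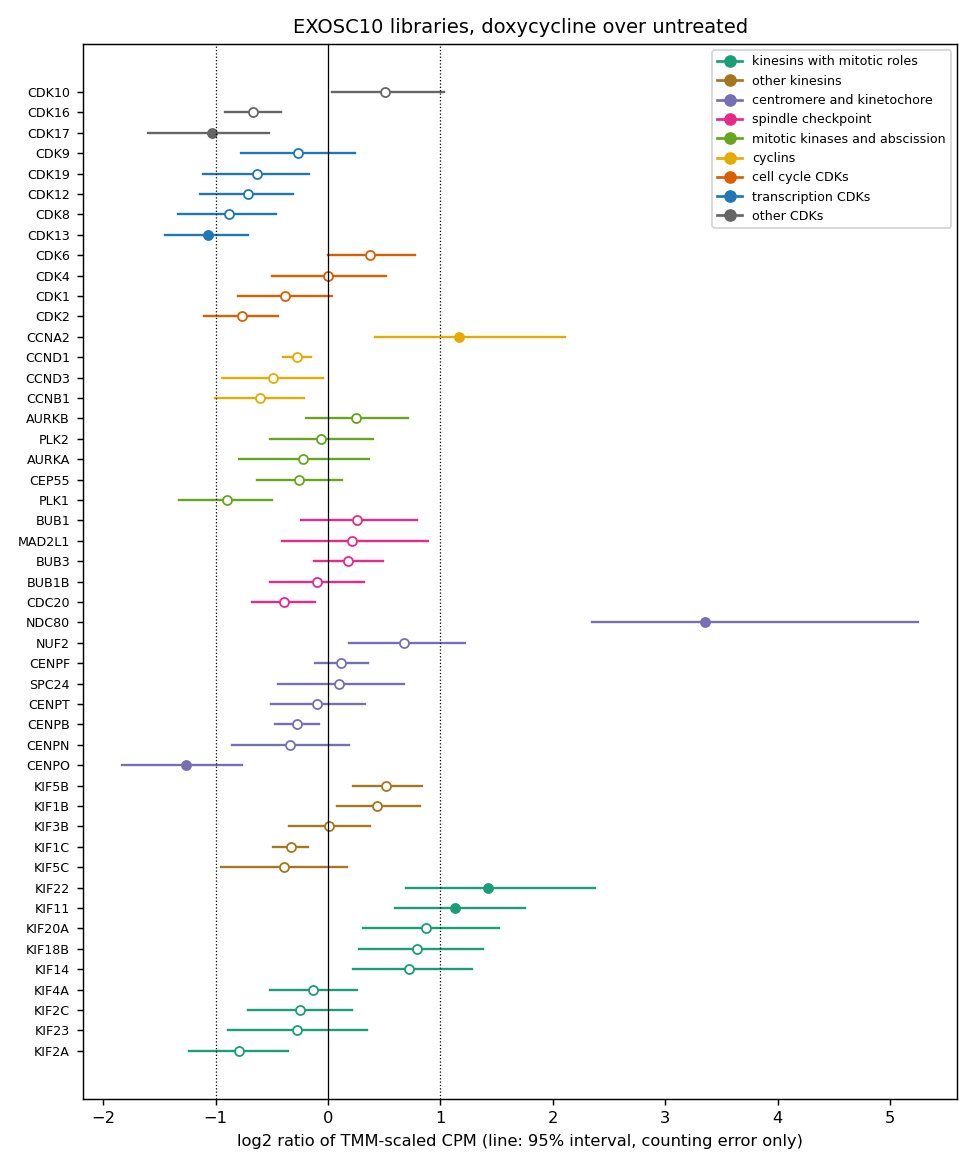
Log2 ratio of doxycycline over untreated in the EXOSC10 libraries for the 48 members with 100 reads or more in the pair, grouped and coloured by role, with 1 library on each side. Lines are 95% intervals for counting error, filled points are 2-fold or more, dotted lines mark 2-fold, and NDC80 at 3.35 lies far to the right of the rest. The points are on the TMM scale, and the total of all reads would shift the scale up by 1.04.

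NDC80 (chr18:2571557-2616635) had 13, 5, 18 and 162 reads. On the scaled level these were 4.97, 0.951, 5.27 and 11.5 CPM. The untreated EXOSC10 library was thus the low one and the doxycycline EXOSC10 library the high one, with the IgG libraries close together between them. The log2 ratio of the EXOSC10 pair was 3.35 (2.35 to 5.24), while the IgG pair, with 31 reads, gave 0.08 (-1.03 to 1.23).

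The partners of NDC80 in its 4-protein complex did not show a like ratio. NUF2, which pairs with NDC80 directly, had 21, 40, 33 and 172 reads and a ratio of 0.67 (0.18 to 1.22). SPC24, of the end that faces the chromosome, had 7.7, 38.0, 7.7 and 109.0 reads and a ratio of 0.10 (-0.44 to 0.68). SPC25, the partner of SPC24, had 1, 23, 3 and 16 reads, too few for the minimum, and lay at -1.77. Summed, the 3 partners had a ratio of 0.14. The NDC80 ratio is thus set against a library with 5 reads, and against the doxycycline IgG library NDC80 was 2.15-fold higher.

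Among members with enough reads, the mitotic kinesins had the highest median of any role list in the EXOSC10 pair, 0.72 over 9 of 13 listed. The minimum of reads shaped this median. KIF22 reached the minimum through the doxycycline EXOSC10 library, and KIF4B, KIF15, KIF18A and KIF20B did not reach it. In the doxycycline test over all 4 libraries, described below, 12 of the list had a median log2 difference of 0.05. KIF11 (Eg5), which pushes the spindle poles apart, had 20, 31, 12 and 184 reads, or 7.65, 5.90, 3.51 and 13.1 CPM. Its doxycycline EXOSC10 value was the highest and its doxycycline IgG value the lowest. The ratio was 1.13 (0.60 to 1.75). KIF22 (Kid), which pushes chromosome arms away from the poles, had 21.7, 14.8, 21.7 and 110.4 reads, or 8.30, 2.81, 6.35 and 7.87 CPM. Here the untreated EXOSC10 library stood low and the other libraries lay close together. The ratio was 1.42 (0.69 to 2.37).

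Another 3 mitotic kinesins had intervals above 0 without reaching 2-fold. KIF20A, which carries the passenger complex to the central spindle, had 21, 29, 45 and 144 reads and a ratio of 0.87 (0.31 to 1.52). It overlaps CDC23, and the sum of both genes gave -0.0067. KIF18B, which shortens astral microtubules, had 28, 35, 20 and 164 reads and a ratio of 0.79 (0.28 to 1.38). KIF14, a motor of cytokinesis, had 17, 38, 28 and 169 reads and a ratio of 0.72 (0.22 to 1.28). The others lay at or below 0: the chromokinesin KIF4A at -0.13, the microtubule depolymerases KIF2C at -0.25 and KIF2A at -0.79, and the central spindle motor KIF23 at -0.27. KIF4A has a near-identical copy, KIF4B, and the sum of both gave 0.15. Across the 9 with enough reads the ratios thus ran from -0.79 to 1.42.

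Of the 14 other kinesins 5 had enough reads, and none was 2-fold different. The most abundant was KIF1C, a transport motor, with 426, 488, 505 and 1035 reads and a ratio of -0.33 (-0.49 to -0.17). KIF5B, the conventional kinesin heavy chain, had 59, 114, 111 and 437 reads. Its ratio was 0.52 with either antibody. KIF1B lay at 0.44, KIF3B at 0.01 and KIF5C at -0.39.

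At the centromere and kinetochore 8 of 23 members had enough reads, with a median of 0.00. CENPF, a large protein of the outer corona, had 75, 202, 90 and 584 reads and a ratio of 0.11 (-0.12 to 0.35). CENPB, which binds the repeated centromeric DNA, had 459, 313, 381 and 689 reads and a ratio of -0.28 (-0.47 to -0.08). CENPO, an inner kinetochore protein, had 17.3, 59.3, 9.0 and 64.5 reads and was 2-fold lower, at -1.26 (-1.83 to -0.76). That value is unsure, since CENPO has 5 entries among which reads were divided, and its entry with the most reads alone gave 1.09. CENPO also overlaps ADCY3, and the sum of both genes gave -0.53.

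None of the spindle checkpoint members with enough reads (5 of 6) was 2-fold different, and their range was narrow. BUB3 had 87, 118, 105 and 357 reads and a ratio of 0.18 (-0.12 to 0.49). CDC20, the activator of the anaphase-promoting complex, had 128, 160, 109 and 325 reads and a ratio of -0.39 (-0.67 to -0.11). BUB1 lay at 0.26, MAD2L1 at 0.21 and BUB1B at -0.10. TTK, with 11, 21, 17 and 76 reads, was under the minimum in this pair.

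The mitotic kinases and the abscission protein CEP55 also stayed within 2-fold. PLK1, which drives entry into mitosis, came closest to it, with 60, 86, 77 and 122 reads, or 23.0, 16.4, 22.6 and 8.69 CPM. The doxycycline EXOSC10 library was the low one of the 4 and the IgG libraries were level, and the ratio was -0.90 (-1.32 to -0.50). AURKA and AURKB, the spindle pole and centromere kinases, lay at -0.22 and 0.25, and PLK2 at -0.06.

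Among the cyclins CCNA2 was 2-fold higher and the other 3 with enough reads were below 0. CCNA2, the partner of CDK2 and CDK1 in S phase and G2, had 15, 15, 24 and 93 reads, or 5.74, 2.85, 7.03 and 6.63 CPM. As with KIF22, the untreated EXOSC10 library was low and the rest were level. The ratio was 1.16 (0.42 to 2.11), and it was 1.75 when the reads of the overlapping gene EXOSC9 (0, 0.8, 5.0 and 56.0) were added, since strand is not known. CCNB1, the cyclin of mitotic entry, had 28, 86, 16 and 149.8 reads and a ratio of -0.61 (-1.01 to -0.22). CCND3 lay at -0.49. CCND1, the G1 cyclin and the member with the most reads (982, 734, 672 and 1618), lay at -0.28 (-0.40 to -0.15).

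The CDKs outside the cell cycle leaned to lower values, with a median of -0.69 over 8 of 13. CDK13, which with cyclin K phosphorylates RNA polymerase II, had 197, 111, 298 and 140 reads, or 75.4, 21.1, 87.3 and 9.98 CPM. The EXOSC10 libraries were both far below the IgG libraries, and the EXOSC10 ratio was -1.07 (-1.45 to -0.71). CDK17, of the PCTAIRE kinases, had 73, 54, 93 and 69 reads and a ratio of -1.03 (-1.60 to -0.52). In the untreated EXOSC10 library nearly all of its reads (54.0) were on 1 of its 2 entries and in the doxycycline EXOSC10 library nearly all (69.0) on the other, so only the sum is used.

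The Mediator kinases CDK8 and CDK19 lay at -0.88 (-1.33 to -0.46) and -0.63 (-1.11 to -0.17), CDK12 at -0.72 (-1.14 to -0.31) and CDK16 at -0.66 (-0.91 to -0.42). CDK9, the kinase of transcription elongation, lay at -0.27, and CDK10 was the exception with 0.51 (0.03 to 1.03). The reads of CDK10 lay mostly on different entries in different libraries, so its value is unsure. Its entry with most reads alone was 2-fold higher or more. By total reads, with the shift of 1.04, the median would lie above 0. Of the cell cycle CDKs, CDK2 lay at -0.77 (-1.10 to -0.45), CDK1 at -0.38 and CDK4 at 0.00.

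In the IgG libraries 1 of the 19 members with enough reads was 2-fold different with doxycycline, namely CDK6, which was lower (5.26%, against 6.55% of 3024 genes, of which 3.80% were lower and 2.74% higher). CDK6, the partner of the D cyclins in G1, had 285, 73, 66 and 254 reads, or 109, 13.9, 19.3 and 18.1 CPM. The untreated IgG library alone was high and the other libraries lay near each other. The IgG ratio was -2.48 (-2.91 to -2.11), whereas the EXOSC10 ratio was 0.38 (0.00085 to 0.78), with an interval that only just left out 0. Both entries of CDK6 held a near-constant share of its reads in all libraries.

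The other members with enough reads had IgG ratios under 2-fold, several of them with intervals that left out 0. CCND1 lay at -0.93 (-1.08 to -0.79), CDK16 at -0.73 (-0.98 to -0.49), CENPB at -0.65 (-0.85 to -0.46) and PLK4 at 0.83 (0.20 to 1.5). For KIF5B the ratio was 0.52 (0.06 to 1.01), the same as in the EXOSC10 pair. CDK12 and CDK13 lay at 0.40 and 0.21 with IgG and at -0.72 and -1.07 with EXOSC10.

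**Figure D3:**
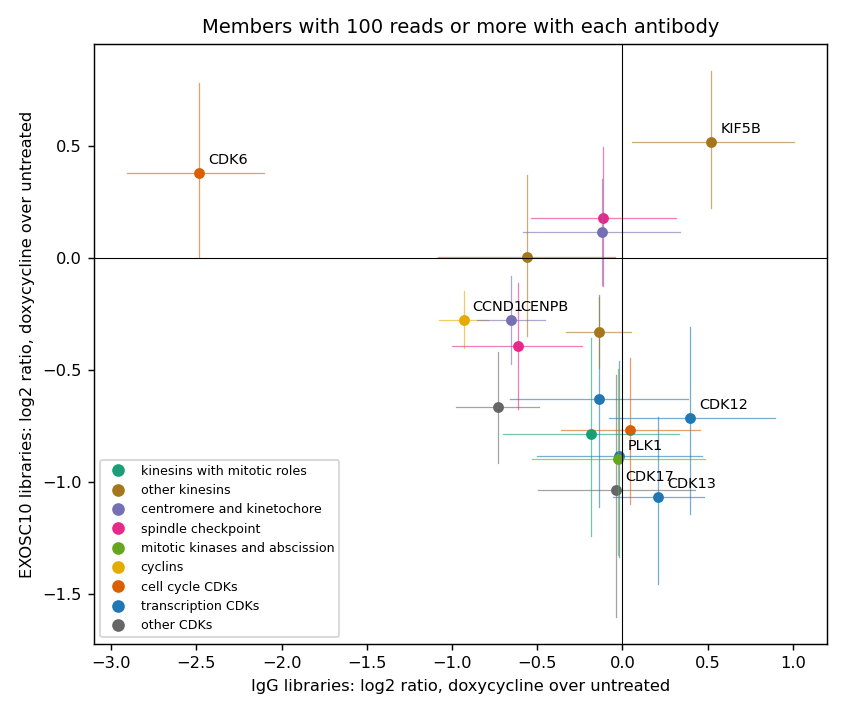
Log2 ratio of doxycycline over untreated in the IgG libraries (x axis) against the EXOSC10 libraries (y axis) for the 18 members with 100 reads or more in each pair, on the TMM scale. Each point is a gene in the colour of its role, and lines are 95% intervals for counting error. CDK6 lies alone at the left, KIF5B is above 0 on both axes, and CDK13, CDK17, CDK12 and PLK1 lie low with EXOSC10 and near 0 with IgG.

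The doxycycline test over all 4 libraries, by limma with the antibody as covariate, called none of the 72 members it could test and none of 9559 genes (0.00% in each direction). The smallest adjusted p of a member was 0.846, and 3 members had an unadjusted p under 0.05 (447 of all genes). They were CENPH, CDK16 and CENPO, with log2 differences of 4.28, -0.70 and -1.26. With 1 residual degree of freedom the other factor stands in for replication. NDC80 had a difference of 1.72 (-0.16 to 3.59) in this test, with adjusted p = 0.846.

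EXOSC10 against IgG asks which of these mRNAs came down with the antibody beyond the background of the procedure. In untreated cells 22 members had enough reads: CEP55 was higher with EXOSC10, and CDK6, CDK13, CENPB, CDK16, CCND1 and CDK17 were lower. These 7 make 31.8%, against 41.9% of 3612 genes. The higher share was 4.55% against 4.96%, and the lower share 27.3% against 36.9%. The members' median was -0.64 and that of all genes -0.48. Scaling by total reads shifted the scale of this pair up by 0.82, with 5 members then higher and 2 lower. Scaling by the reads outside ribosomal RNA shifted it up by 1.05, and then 5 members were higher and 1, CDK6, lower.

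In doxycycline-treated cells 47 members had enough reads, with 8 higher and 13 lower. Members with few IgG reads entered this pair only where their EXOSC10 reads were many, which favoured higher ratios among them. The 21 make 44.7%, against 40.3% of 6269 genes. The higher share was 17.0% against 13.3%, and the lower share 27.7% against 27.0%. Here the scaling decides the direction for many: by reads outside ribosomal RNA the scale shifts up by 1.07 and 23 members are higher and 3 lower, and by total reads it shifts up by 2.50 and 42 are higher and none lower. The 34 cell division members with enough reads had a median of 0.22, with 7 higher and 6 lower. The 8 tested CDKs outside the cell cycle had a median of -1.56, with 6 lower and CDK10 higher.

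**Figure D4:**
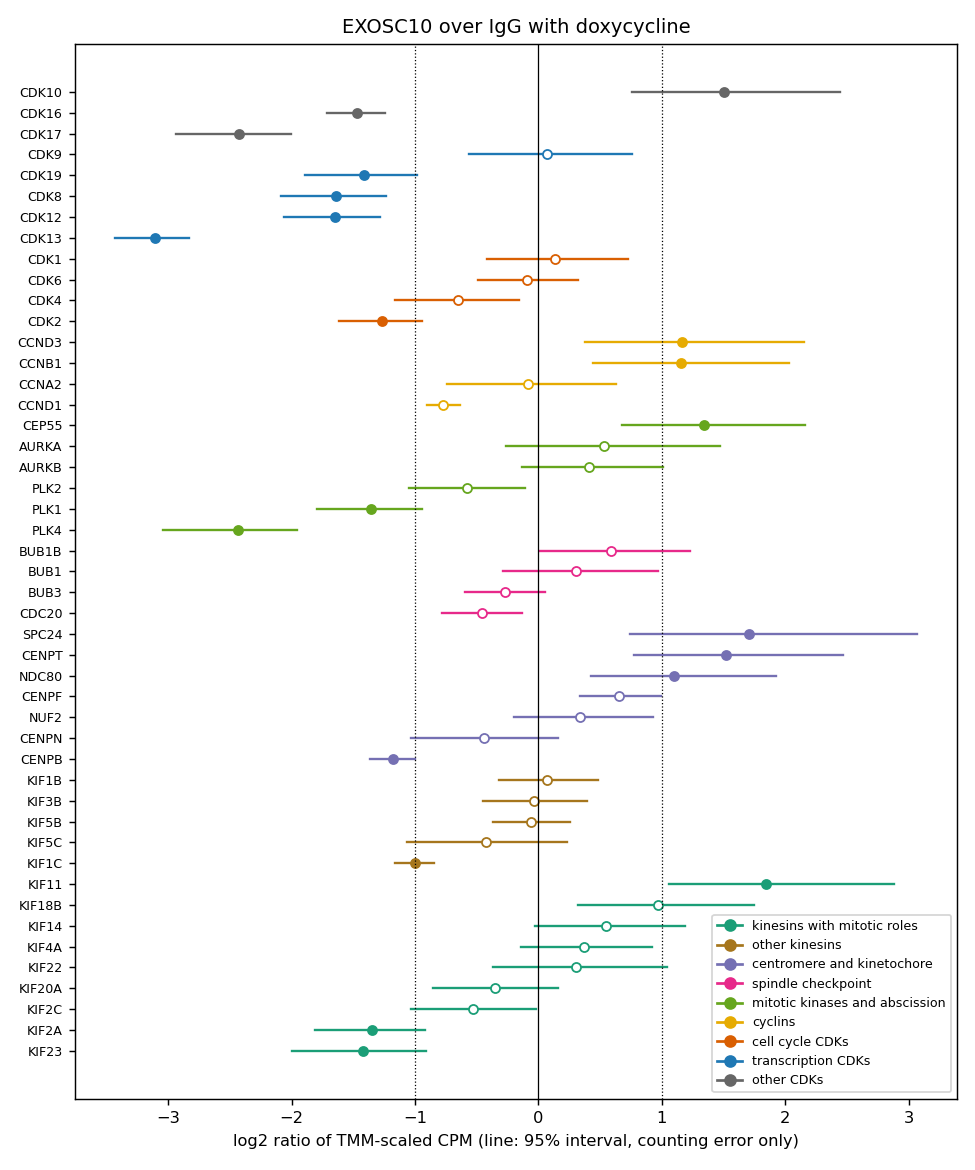
Log2 ratio of EXOSC10 over IgG in doxycycline-treated cells for the 47 members with 100 reads or more in the pair, grouped and coloured by role, with 1 library on each side. Lines are 95% intervals for counting error, filled points are 2-fold or more, and dotted lines mark 2-fold. Kinetochore members NDC80, CENPT and SPC24 lie at the right and CDK13, CDK17, CDK12 and CDK8 at the left; by total reads the scale would shift up by 2.50.

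CEP55, a midbody scaffold that recruits the ESCRT machinery for the final cut between daughter cells, was the member that was 2-fold higher with EXOSC10 in both treatments. It had 15, 86, 18 and 192 reads, or 5.74, 16.4, 5.27 and 13.7 CPM. The EXOSC10 libraries were both above both IgG libraries. The ratios were 1.48 (0.71 to 2.41) untreated and 1.34 (0.68 to 2.16) with doxycycline. The reads of CEP55 were divided between entries in shares that differed between libraries. Its entry with most reads alone gave 4.36 over IgG with doxycycline. By that setting no member was called higher in untreated cells, and CEP55 was 2-fold lower with doxycycline in the EXOSC10 pair. Of the 3592 genes tested in both treatments 0.891% were higher in both, and of the members 1 of 22 was. In the antibody test by limma CEP55 had a log2 difference of 1.41 and narrowly missed the threshold, with adjusted p = 0.0522.

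At the kinetochore 3 of 7 members were higher with EXOSC10 after doxycycline and 1 was lower (13.3% and 27.0% of all genes). The higher ones, NDC80, SPC24 and CENPT, had few IgG reads and reached the minimum through the doxycycline EXOSC10 library, where they were high. The minimum thus shaped this count. NDC80 lay at 1.10 (0.42 to 1.92), and at 0.95 when the entry with most reads stood for each gene. SPC24 lay at 1.70 (0.74 to 3.07), and its untreated ratio, on 45.6 reads, was 1.25 (0.16 to 2.64). CENPT, which anchors the NDC80 complex to the inner kinetochore, had 15, 68, 14 and 170 reads and a ratio of 1.52 (0.78 to 2.46). CENPT overlaps THAP11 and NUTF2, which have more reads, and the sum of the 3 genes turned to -1.24. CENPB was lower, at -1.56 (-1.77 to -1.35) untreated and -1.18 (-1.37 to -1.0) with doxycycline. CENPF, NUF2 and CENPN stayed within 2-fold with doxycycline, at 0.65, 0.34 and -0.44.

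Of the 47 members with enough reads in doxycycline-treated cells, KIF11 had the highest ratio, 1.84 (1.06 to 2.88). With 12 IgG and 184 EXOSC10 reads there, it reached the minimum through the EXOSC10 library. Its ratio in untreated cells, on 51 reads, was -0.36 (-1.23 to 0.51). KIF18B lay at 0.97 (0.32 to 1.75). KIF23 and KIF2A were lower, at -1.42 (-2.00 to -0.91) and -1.35 (-1.81 to -0.92). Among other kinesins KIF1C was at the threshold, with -1.0 (-1.16 to -0.85), and the other 4 lay between -0.43 and 0.07.

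The cyclins split. CCND3 had 11, 65, 13 and 123 reads and CCNB1 28, 86, 16 and 149.8, and with doxycycline they were higher with EXOSC10, at 1.16 (0.38 to 2.15) and 1.15 (0.44 to 2.03). The reads of CCND3 were divided between 3 entries in shares that differed between libraries, and the entry with most reads alone gave 0.63. CCND1 was lower in untreated cells, at -1.43 (-1.57 to -1.29), and lay at -0.77 (-0.90 to -0.64) with doxycycline. The mitotic kinases split as well. PLK4, which starts centriole duplication, had 30, 30, 70 and 51 reads and a ratio of -2.43 (-3.05 to -1.95) with doxycycline. Its reads were divided unevenly between 2 entries, and the entry with most reads alone gave -0.55, under 2-fold. PLK1 had a ratio of -1.36 (-1.80 to -0.94).

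The kinases of transcription had the lowest median of the role lists over IgG with doxycycline, -1.64 over 5 of 6. CDK13 had ratios of -1.83 (-2.18 to -1.49) untreated and -3.10 (-3.43 to -2.83) with doxycycline. With doxycycline CDK12 (58, 80, 100 and 129 reads) lay at -1.65 (-2.06 to -1.28). CDK8 (66, 77, 85 and 110.2 reads) lay at -1.64 (-2.09 to -1.24), and CDK19 (59, 62, 70 and 106 reads) at -1.42 (-1.89 to -0.98). All 3 turned positive on the scale of total reads, and CDK13 stayed negative. CDK9 lay at 0.07. CDK17 lay at -2.42 (-2.94 to -2.01) and CDK16, with 317, 218, 249 and 366.7 reads, at -1.47 (-1.72 to -1.24). CDK10, with 18, 43.9, 14 and 168.2 reads, lay at 1.5 (0.76 to 2.45), with its reads mostly on different entries in different libraries. Among cell cycle CDKs, CDK2 was lower, at -1.27 (-1.61 to -0.94).

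CDK13, CDK16, CDK17 and CENPB were lower with EXOSC10 in both treatments, which is 4 of 22 members against 31.6% of all genes, and no member was 2-fold different in opposite directions. The ratios of the 2 treatments, which share no library, correlated over the 22 members with Pearson r = 0.65 and Spearman rho = 0.65, and over all 3592 genes with 0.79 and 0.81. This is a correlation across genes, which are not independent replicates.

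The antibody test over 4 libraries, by limma with treatment as covariate, tested 72 members. It called 8 lower and none higher, against 16.3% lower and 1.27% higher of 9559 genes. By any direction 21 of the 72 members had an unadjusted p under 0.05, 4 of them higher, as had 2935 of the 9559 genes. The members called lower were CDK13 (log2 difference -2.46, adjusted p = 0.0020), CDK16 (-1.51, 0.0035), CENPB (-1.37, 0.0057), CDK17 (-1.92, 0.0094) and CCND1 (-1.10, 0.0244), followed by KIF1C (-0.91, 0.0344), KIF16B (-1.90, 0.0429) and PLK4 (-1.71, 0.0487). All of these were lower in each of the 2 treatments. The direction rests on the scaling: by total reads none was called, and by reads outside ribosomal RNA 21 members were called higher and CDK13 lower. Without the mean-variance trend none of the 72 members and none of the 9559 genes was called in either direction, with 14 members and 2512 genes at an unadjusted p under 0.05.

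The change of enrichment, EXOSC10 over IgG with doxycycline minus the same without, could be had for 18 members. It was 2-fold higher for CDK6, at 2.86 (2.32 to 3.40), and 2-fold lower for CDK13, at -1.28 (-1.72 to -0.83), and CDK12, at -1.11 (-1.73 to -0.50). These 3 make 16.7%, against 15.7% of 2942 genes. The higher share was 5.56% against 4.76%, and the lower share 11.1% against 10.9%. For CDK6 the untreated IgG library was the high one, while for CDK13 and CDK12 the doxycycline EXOSC10 library was the low one. By total reads CDK13 and CDK12 turned to 0.38 and 0.54. KIF11 and NDC80, with too few IgG reads for the minimum, had changes of 2.21 (1.04 to 3.38) and 3.27 (1.62 to 4.92). The NDC80 value rests on 5 reads in the untreated EXOSC10 library. With a minimum of 20 reads 57 members were tested, of which 7 were 2-fold higher and 5 lower. CDK4, KIF5C and PLK4 were then among the lower ones.

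Another 40 members never reached 100 reads in any of the 4 pairs, and 17 members had 10 reads or more in a single library, which for 15 of them was the doxycycline EXOSC10 library. Some were without a read in 1 library, and their folds are set against a floor of 3 reads there. These folds leave out the counting error of the library with reads, so they are no lower limits. CENPH, of the inner kinetochore, had 0, 0, 11 and 59 reads. By the floor it was 7.36-fold higher with doxycycline in the EXOSC10 pair and 2.81-fold in the IgG pair. CDK14 had 31.8, 0.13, 11.4 and 72.9 reads. By the floor it was 9.10-fold higher with doxycycline in the EXOSC10 pair and 21.3-fold lower with EXOSC10 in untreated cells. CDK7, the CDK-activating kinase, had 0, 12.8, 2.8 and 0 reads. By the floor it was 11.4-fold lower with doxycycline in the EXOSC10 pair. CENPI, with 0, 11, 0.66 and 0.34 reads, cannot be given with any precision. Such values rest on few reads and on how these were divided between entries, and when the reads of CCDC125, which overlaps CDK7, were added the ratio was -0.22.

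The neighbours of the members in the cell division machinery were followed through 4 lists. Of 24 outer kinetochore and checkpoint partners 12 had enough reads in the EXOSC10 pair, and 2 were 2-fold higher with doxycycline and none lower, against 5.84% and 4.20% of all genes. SPDL1 (Spindly), which brings dynein to the kinetochore, had 8.9, 7.1, 7.9 and 141.5 reads and a ratio of 2.72. HJURP, the chaperone that loads the centromeric histone CENP-A, had 40.0, 57.9, 35.0 and 344.3 reads and a ratio of 1.14. In SPDL1 the doxycycline EXOSC10 library had by far the most reads, and SPDL1 reached the minimum through that library. Over IgG with doxycycline 5 of 9 of this list were higher (NSL1, KNTC1, SPDL1, MAD2L1BP and HJURP) and none lower, against 13.3% higher and 27.0% lower of all genes, with a median of 1.07. These shares are shaped by the minimum of reads. NSL1, KNTC1 and MAD2L1BP had 5.7, 11 and 11 reads in the doxycycline IgG library and reached the minimum through the EXOSC10 library, as did SPDL1. A gene with few reads that was lower with EXOSC10 could not enter. The limma tests called none of 16, with an unadjusted p under 0.05 for 4 in the antibody test and 0 in the doxycycline test.

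Of 25 spindle, passenger complex and cytokinesis genes 22 had enough reads in the EXOSC10 pair. The microtubule bundler PRC1 (1.19) and anillin, ANLN (1.01), were higher with doxycycline and the minus-end kinesin KIFC1 (-1.22) lower. This is 9.09% higher and 4.55% lower, against 5.84% and 4.20% of all genes. Over IgG with doxycycline INCENP was higher (1.26) and ASPM (-1.16) and CIT (-1.72) lower, of 20. These shares, 5.00% and 10.0%, were below the 13.3% and 27.0% of all genes. The limma tests called none of 24, again with 4 and 0 at an unadjusted p under 0.05.

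Of 20 genes of the anaphase-promoting complex and its partners 12 had enough reads, and none was 2-fold different with doxycycline in the EXOSC10 pair. ANAPC5, with 1542, 734, 1783 and 1003 reads, was lower with EXOSC10 in both treatments, at -2.08 and -2.87. By limma it and CDC27 were lower of 19 tested, against 16.3% lower of all genes (ANAPC5 log2 difference -2.47, adjusted p = 0.0015).

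Of 40 listed CDK regulators 29 had enough reads in the EXOSC10 pair, and 3 were higher with doxycycline and none lower: cyclin G1 (CCNG1, 1.58), cyclin C (CCNC, 1.44), the partner of CDK8, and PKMYT1 (1.10), which inhibits CDK1. This is 10.3% of those tested, against 5.84% higher and 4.20% lower of all genes. Over IgG with doxycycline 4 were higher and 7 lower, or 13.8% and 24.1%, against 13.3% and 27.0% of all genes. The antibody test by limma called MNAT1 higher and CDKN2C, CKS2, CCNI, CCNK, CCNT2 and E2F3 lower, of 38, against 1.27% higher and 16.3% lower of all genes. CCNK, the cyclin of CDK12 and CDK13, had a log2 difference of -2.11 with adjusted p = 0.0019. The inhibitor genes CDKN2A and CDKN2B, which the parental MDA-MB-231 line is known to have lost, had 61, 102.6, 41 and 330 reads and 31, 38, 44 and 144 reads; the source of these reads was not tested.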

How the data were processed

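RNA co-precipitated with anti-EXOSC10 or IgG was sequenced from 4 samples of a human cell line, 1 per group. The authors deposited 1 table of CPM (reads scaled to 1000000 per library), recognised by its column sums once a constant of 0.0001 is taken off each entry. STAR, Partek and build hg38 are named per the submitters' processing notes; versions, strand and counting rule: not given in the sources used here. There are 24015 entries for 12838 symbols, each with at least 10.0 reads in a library; entries of a symbol were summed. Reads were estimated as CPM over the step of 1 read. Of the 89 members 51 had whole reads in all libraries (within 0.05), so no count model was used.

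Scaling was by TMM (trims of 30% and 5%), the pseudocount 0.2 CPM, the minimum 100 reads, the floor 3 reads, and the intervals Clopper-Pearson at 95%, or from summed reciprocal reads for the change of enrichment. Intervals cover counting error only, and folds against the floor leave out the counting error of the library with reads. The additive tests used limma 3.58.1 (R 4.3.3) on log2(scaled CPM + 0.2) with a mean-variance trend, Benjamini-Hochberg adjustment at 0.05 over 9559 symbols with 10 reads or more in 2 libraries or more, and 1 residual degree of freedom; 72 members passed. Nothing in the labels names separate cultures, so differences between these samples may be technical. The p-values rest on how far the 4 samples depart from additive effects of antibody and treatment. A doxycycline difference that is unlike between the antibodies thus counts as error in them. The scripts (Python 3.11.15, numpy 2.4.6, pandas 2.3.3, scipy 1.17.1) were tested on simulated data.

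The members, gene lists, tests and alternatives were chosen with earlier results of these data known. Named were NDC80, CEP55, CCNA2, KIF11, KIF20A, PLK1 and CDK6, the called members whose intervals lay farthest from 0 in each ratio, the 4 members with most reads per role, members without a read in a library, and the leading genes of the pathway lists; others were named beside small counts. Alternatives were other scalings, pseudocounts and minimums, whole reads only, the entry with most reads, and, added after seeing the data, sums with overlapping genes. Gene positions are from the GRCh38.p14 gene table, which matched 88 members, and 77 had a listed promoter.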

Additional observations from a re-analysis of the deposited data

Results flagged for a closer look

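CDK6 stood apart because its ratios of doxycycline over untreated had opposite signs with the 2 antibodies. It was lower in the IgG libraries, at -2.48 (-2.91 to -2.11), and slightly higher in the EXOSC10 libraries, at 0.38 (0.00085 to 0.78). The opposite sign is unsure, since scaling by the median of ratios shifts the EXOSC10 pair by -0.11 and takes its lower bound below 0. The log2 ratios differed by 2.86, between 2.65 and 4.51 over the alternative settings. With 1 library per group the difference was not tested. The untreated IgG library, with 285 reads and 109 scaled CPM, is the one that stands apart from the other 3, which lay between 13.9 and 19.3 scaled CPM.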

How the results depend on the processing

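The counts of members (higher and lower) were most open to the scaling and to the minimum of reads. By total reads they became 20 and 0 for doxycycline in the EXOSC10 pair, 6 lower in the IgG pair, 5 and 2 for EXOSC10 over IgG untreated, 42 and 0 for the same with doxycycline, and 12 and 0 for the change of enrichment. By reads outside ribosomal RNA they became 1 lower for doxycycline with EXOSC10, 5 and 1 untreated and 23 and 3 with doxycycline for EXOSC10 over IgG, and by upper quartile 1 lower for doxycycline with EXOSC10. With a minimum of 20 reads they were 11 and 7, 1 and 5, 9 and 9, 19 and 18, and 7 and 5, in the order given for total reads. With 500 reads they were 0 and 0, 0 and 0, 0 and 3, 0 and 3, and 0 and 0. With only whole reads they were 5 and 9 for EXOSC10 over IgG with doxycycline. From the entry with most reads they were 0 and 5 untreated and 5 and 9 with doxycycline for EXOSC10 over IgG. The antibody test by limma gave 0 lower by total reads, 21 higher and 1 lower by reads outside ribosomal RNA, 1 and 13 with a pseudocount of 1 CPM, 1 and 16 with no filter, and 0 lower without the trend; the doxycycline test gave 1 higher (CENPH) by total reads. By total reads the ratios over IgG with doxycycline turned to 0.82 for CDK12, 1.01 for CDK16, 0.028 for CDK17, 1.04 for CDK19, 1.21 for CDK2, 0.82 for CDK8, 1.31 for CENPB, 1.49 for KIF1C, 1.02 for KIF23, 1.11 for KIF2A, 1.11 for PLK1 and 0.0020 for PLK4, and the change of enrichment to 0.54 for CDK12 and 0.38 for CDK13; these follow from the shift of the scale. KIF1C turned to 0.066 by reads outside ribosomal RNA. From the entry with most reads CDK17 turned to 4.58 and CENPO to 1.09 for doxycycline with EXOSC10, and with overlapping genes added, an alternative chosen after seeing the data, CENPT turned to -1.24. Of 268 recomputed gene values 18 reversed. NDC80 stayed between 2.68 and 4.42, KIF22 between 1.22 and 2.45, KIF11 between 0.98 and 2.16, CCNA2 between 0.98 and 2.19 for doxycycline with EXOSC10, and CDK6 between -3.11 and -2.32 for doxycycline with IgG. Leaving out a library leaves no residual degree of freedom, so no test could be had without one. No paired analysis was possible because each group has 1 library and the labels give no replicate numbers; the tests over 4 libraries take the other factor as covariate.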
